A study of Rattus norvegicus with 12 samples.

Results

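The C-type lectin pattern receptors are surface proteins of myeloid cells that bind sugars and lipids of microbes and of dying cells. The genes described here are Clec4a, Clec4d, Clec4e, Clec7a, Clec10a, Clec12a and Clec5a, together with the kinase gene Syk and the adaptor gene Card9. They were chosen by symbol: all 9 listed symbols were present among the 32623 genes of the count tables, each on 1 row, and all 9 passed the filter on low counts, as did 13539 genes in all. Their expected counts ran from 382 to 15564 per library, and each value was exactly a whole number, as were 80.5% of all values above 0. That does not show how reads that fit several genes were assigned.

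Polyadenylated RNA was sequenced from rat cells that carry the label of primary hepatic stellate cells and came, by gradient centrifugation, from animals made cirrhotic with inhaled CCl4. The cells spent 24 h below Transwell inserts that held 15000 viable human amniotic epithelial cells (hAEC) or human amniotic mesenchymal stromal cells (hAMSC), or with vehicle. There were 4 libraries in each of the 3 groups, and each is called here by its number in the sample title: hAEC has 3, 4, 11 and 12, hAMSC has 7, 8, 15 and 16, and vehicle has 17, 18, 19 and 20. The labels tie no library to an animal or culture, so the p-values below speak only of library-to-library spread, part or all of which may be technical. All rats were cirrhotic, so no healthy cells stand beside them, and the labels used here give no strain, sex or age.

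Across the groups, the expression data split the libraries into 2 sets. The higher-numbered set holds hAEC 11 and 12, hAMSC 15 and 16 and vehicle 19 and 20, and the lower-numbered set holds the other libraries, 2 of each group in each set. The first principal component of the 2000 most variable genes parted the sets and held 65.6% of the variance. The labels do not name these sets, and the genes described here are among the data in which they were seen. Differences between the sets are therefore given as a description, with no test. Total counts were 27382724 to 34922211 per library. The markers do not match the labelled cell type: Cd68, a lysosomal protein of macrophages, lay at 1525 to 1681 CPM (counts scaled to a common library size) over the 12 libraries. Acta2, an actin of contractile, activated stellate cells, lay at 0.802 to 3.0 CPM, and Lrat, the retinol-esterifying enzyme of quiescent ones, at 0 to 0.371 CPM. All 10 stellate and myofibroblast markers summed to 19.1 to 24.7 CPM in the higher-numbered set and 62.3 to 102 CPM in the lower-numbered set. Of the 7 tested, 2 were over 2-fold higher and 2 over 2-fold lower in the higher-numbered set, against 9.71% and 9.93% of all genes. Because these are bulk libraries, fewer cells of a type and less RNA per cell cannot be told apart.

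Most activating receptors of the family signal through an immunoreceptor tyrosine motif, either in their own tail or in a partner chain. The motif is phosphorylated by Src family kinases, recruits Syk, and leads through protein kinase C delta to a complex of CARD9, BCL10 and MALT1 that switches on NF-kB. Other members carry an inhibitory motif that recruits phosphatases. In the liver, such receptors are known from Kupffer cells, infiltrating macrophages, dendritic cells and neutrophils.

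Clec4d (MCL) and Clec4e (Mincle), a pair of receptors for mycobacterial cord factor and for material of dead cells, are direct neighbours on chromosome 4 in the RefSeq annotation. Clec4a, the inhibitory receptor also known as Dcir, lies on the same chromosome, with 3 genes between it and Clec4d. The promoter windows of these 3 genes are shown because Clec4d and Clec4e moved together between the sets and Clec4a moved against them. They run from 250 bases before to 50 bases after the RefSeq gene start in build GRCr8, 5′ to 3′ on the strand of the gene. The counts themselves were made on an earlier build, so these positions belong to the sequences alone. Capitals mark GAGGAA, a core of sites for the myeloid factor PU.1, and TTNNGNAA, a loose form of the C/EBP site, on either strand. The windows are chr4:158275093-158275392 on the plus strand for Clec4d, chr4:158298418-158298717 on the minus strand for Clec4e and chr4:158100365-158100664 on the plus strand for Clec4a.
Clec4d: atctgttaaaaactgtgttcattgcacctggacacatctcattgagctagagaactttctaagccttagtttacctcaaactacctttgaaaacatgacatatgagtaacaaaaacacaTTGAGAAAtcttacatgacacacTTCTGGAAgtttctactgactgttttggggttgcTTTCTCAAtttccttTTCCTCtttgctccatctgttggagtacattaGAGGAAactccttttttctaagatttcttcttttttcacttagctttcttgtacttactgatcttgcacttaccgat
Clec4e: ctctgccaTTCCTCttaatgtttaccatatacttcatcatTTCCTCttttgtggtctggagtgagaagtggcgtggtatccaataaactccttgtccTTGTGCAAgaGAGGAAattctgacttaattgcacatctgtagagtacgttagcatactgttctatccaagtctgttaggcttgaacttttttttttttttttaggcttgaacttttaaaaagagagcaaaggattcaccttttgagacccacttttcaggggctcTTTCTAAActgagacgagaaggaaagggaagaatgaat
Clec4a: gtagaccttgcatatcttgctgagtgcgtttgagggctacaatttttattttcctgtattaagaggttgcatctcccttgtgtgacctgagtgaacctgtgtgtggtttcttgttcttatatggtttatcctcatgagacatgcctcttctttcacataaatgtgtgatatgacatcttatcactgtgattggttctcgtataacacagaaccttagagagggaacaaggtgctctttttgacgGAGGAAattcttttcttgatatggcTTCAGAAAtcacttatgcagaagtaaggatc

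The PU.1 letters occurred 2 times in the Clec4d window, 3 times in that of Clec4e and 1 time in that of Clec4a. The C/EBP letters occurred 3, 2 and 1 times in the same order, and no match of one motif overlapped a match of the other in these windows. Windows were matched for 8 of the 9 genes. PU.1 letters were in 5 of the 8 (Clec12a, Clec4a, Clec4d, Clec4e and Syk), against 27.5% of 27457 windows of the same length. C/EBP letters were in all 8, against 40.8% of windows. A form of the NF-kB site, GGG and TTCC with 3 bases of any kind between them, was in 1 of the 8, that of Clec5a, against 5.36% of windows. These are matches of letters and not shown sites.

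Of the receptors that couple to an activating chain, the Clec4d and Clec4e pair was far lower in the higher-numbered set. Clec4d in the higher-numbered set was at 34.5 and 30.7 CPM with hAEC, 32.3 and 32.5 CPM with hAMSC, and 30.2 and 31.2 CPM with vehicle. In the lower-numbered set it was at 255 and 232 CPM with hAEC, 306 and 242 CPM with hAMSC, and 207 and 195 CPM with vehicle. All 6 libraries of the higher-numbered set lay below all 6 of the lower-numbered one, with means of 31.9 ± 1.56 and 239 ± 39.5 CPM (SD, n = 6 each) and a log2 ratio of -2.91.

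Clec4e was at 13.6 and 14.3 CPM with hAEC, 16.95 and 14.01 CPM with hAMSC and 15.1 and 16.7 CPM with vehicle in the higher-numbered set. In the lower-numbered set it was at 104 and 95.4 CPM with hAEC, 129 and 103 CPM with hAMSC, and 91.8 and 89.8 CPM with vehicle. Again no library of the higher-numbered set reached the range of the other, and the log2 ratio of the means was -2.76. In both genes hAMSC 7 was the highest of the 12 libraries.

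Clec7a (Dectin-1), the receptor for fungal beta-glucan that carries its own activating motif, differed little between the sets. It lay at 316 to 368 CPM in the higher-numbered set and at 349.8 to 445 CPM in the lower-numbered set, ranges that overlap, with a log2 ratio of -0.23. Clec5a, which signals through the partner chain Dap12 and is known as a receptor for dengue virus in human and mouse cells, lay at 17.5 to 21.6 CPM in the higher-numbered set and 17.9 to 22.9 CPM in the lower-numbered set (log2 ratio -0.05). Neither gene parted the sets.

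Of the 9 genes, the inhibitory receptors Clec4a and Clec12a moved the other way. Inhibitory lectin receptors outside the 9 were not grouped, so nothing is said of the class. Clec4a in the higher-numbered set was at 84.2 and 76.3 CPM with hAEC, 73.1 and 84.5 CPM with hAMSC, and 78.4 and 76.7 CPM with vehicle. In the lower-numbered set it was at 21.6 and 21.2 CPM with hAEC, 20.5 and 20.2 CPM with hAMSC, and 19.2 and 19.7 CPM with vehicle. Every library of the higher-numbered set was above every library of the lower-numbered set, with a log2 ratio of 1.95. Clec12a, an inhibitory receptor for uric acid crystals in mouse, lay at 38.4 to 52.3 CPM in the higher-numbered set and at 27.3 to 34.3 CPM in the lower-numbered set, with no overlap and a log2 ratio of 0.55.

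Clec10a (Mgl), a galactose-type lectin used as a marker of alternatively activated macrophages, was also higher in the higher-numbered set. It was at 54.3 and 55.7 CPM with hAEC, 62.1 and 56.2 CPM with hAMSC, and 45.4 and 42.9 CPM with vehicle there. In the lower-numbered set it was at 19.2 and 24.2 CPM with hAEC, 23.4 and 30.3 CPM with hAMSC, and 20.5 and 21.5 CPM with vehicle. The sets did not overlap, and the log2 ratio was 1.19.

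The shared signalling genes moved least among those whose sets did not overlap. Syk lay at 485 to 509 CPM in the higher-numbered set and at 387 to 416 CPM in the lower-numbered set, a log2 ratio of 0.34. Card9 lay at 36.2 to 43.6 CPM in the higher-numbered set and at 44.0 to 51.5 CPM in the lower-numbered set, a log2 ratio of -0.24. Syk had the smallest spread of the 9 genes within a set, with a coefficient of variation of 1.86% in the higher-numbered set and 2.84% in the lower-numbered set. The largest within the higher-numbered set was that of Clec10a (13.7%), which was also the largest in the lower-numbered set (16.98%).

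**Figure D1:**
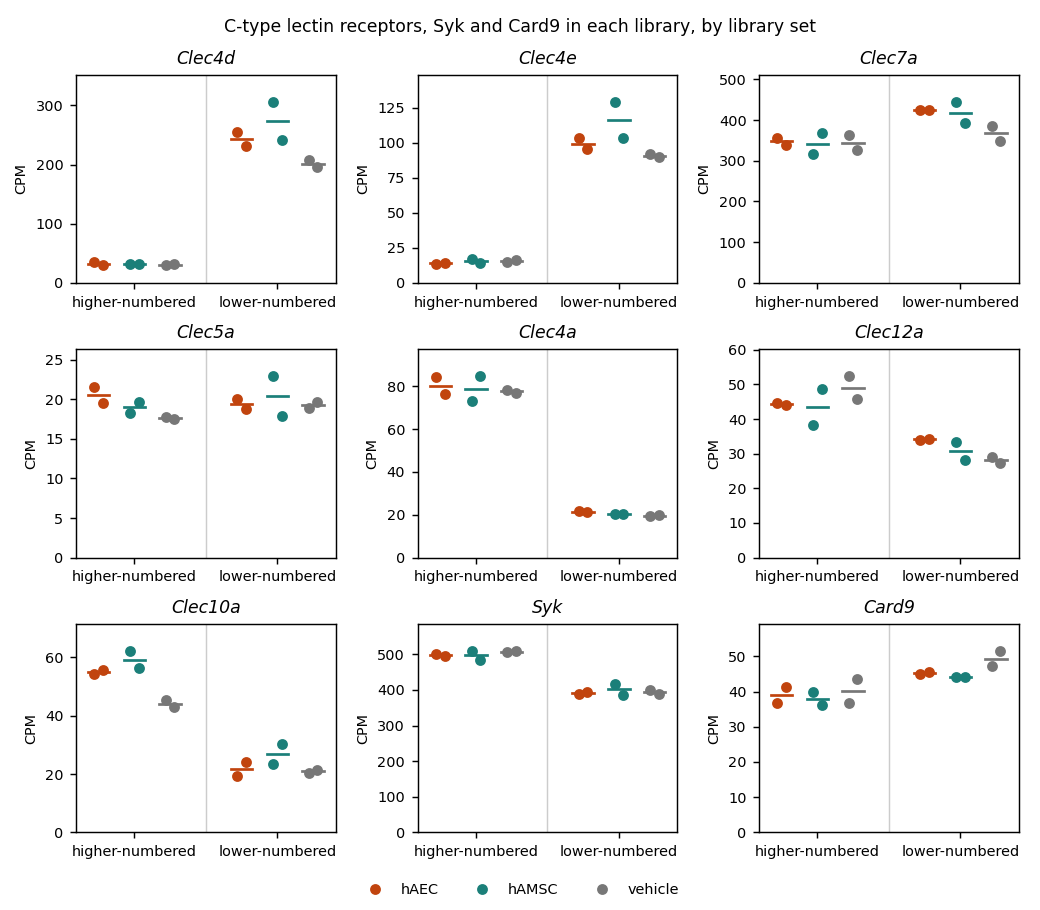
Levels of the 9 genes in each library, in CPM on axes from 0. Points are libraries and short lines are the means of the 2 libraries of a group in a set, with the higher-numbered set on the left; Clec4d and Clec4e are low on the left, while Clec4a and Clec10a are low on the right.

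Counted together, 2 of the 9 genes were over 2-fold higher in the higher-numbered set, Clec4a and Clec10a, against 9.71% of the 13539 genes tested. The 2 over 2-fold lower, Clec4d and Clec4e, stand beside 9.93% of all genes. Together these 4 genes over 2-fold compare with 19.6% of all genes. None of the 9 was over 4-fold higher in the higher-numbered set, against 3.5% of all genes, though Clec4a at 3.87-fold lay just below that cut. The sets did not overlap for 7 of the 9 genes, against 54.9% of all genes. Clec4d was over 7-fold lower in the higher-numbered set, a size that 1.48% of all genes passed. That cut lies just below the Clec4d ratio of 7.51 and above the Clec4e ratio of 6.77, so the share is only a description. The median log2 ratio of the 9 genes was -0.05, and that of all genes was 0.00 to this rounding. The 4 genes over 2-fold were also over 2-fold in the vehicle libraries alone and under each other scaling, and when any 1 library was left out.

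Along chromosome 4 the change of direction fell between Clec4a and Clec4d. In the RefSeq order Clec4a1, Clec4a3, Clec4a2 and Clec4a come first, then Clec4b2 and 2 pseudogenes, then Clec4d and Clec4e. All 4 genes of the Clec4a group were higher in the higher-numbered set. Clec4a1 averaged 420.2 CPM in the higher-numbered set and 88.2 CPM in the lower-numbered set (log2 ratio 2.25), and Clec4a3 305 and 100.4 CPM (1.60). Clec4a2 averaged 47.2 CPM in the higher-numbered set and 4.03 CPM in the lower-numbered set (3.55). Clec4b2 stayed at 0.245 and 0.242 CPM and was not tested. Close copies such as the Clec4a genes can share reads, and how the submitters' tools split such reads was not tested here.

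**Figure D2:**
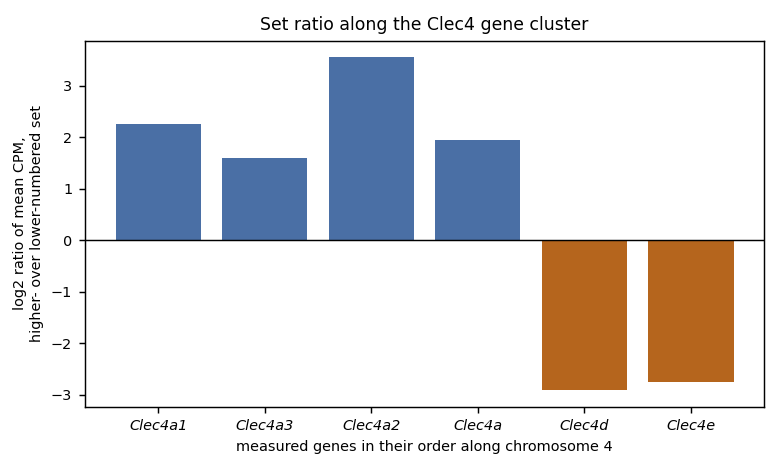
Log2 ratio of mean CPM, higher-numbered over lower-numbered set, for the tested genes of the Clec4 cluster in their order on chromosome 4. Bars start at 0; the 4 Clec4a genes have ratios above 0, and Clec4d and Clec4e have ratios of -2.91 and -2.76.

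The wider pathway was read from 7 lists with 126 genes found in the count tables, of which 112 were tested. Of 27 tested genes among the other C-type lectin receptors, 7 were over 2-fold higher and 11 over 2-fold lower in the higher-numbered set, where all genes had 9.71% higher and 9.93% lower. Clec4a2 and the Langerhans cell lectin Cd207 had the largest ratios upward. Cd207 lay at 7.38 to 10.4 CPM in the higher-numbered set, and had 3 counts in all in the lower-numbered set, where 4 libraries were at 0. The early activation lectin Cd69 (1.53 CPM in the higher-numbered set and 15.5 CPM in the lower-numbered set) and the hyaluronan receptor Layn (28.5 and 167 CPM) had the lowest ratios among those with a mean of at least 5 CPM in a set.

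Of 26 genes for the chains and kinases between receptor and CARD9, 2 were over 2-fold higher and 3 over 2-fold lower in the higher-numbered set, with a median log2 ratio of 0.22. These 5 genes are a share near the 19.6% of all genes over 2-fold in either direction. The adaptor gene Blnk averaged 219.8 CPM in the higher-numbered set and 16.8 CPM in the lower-numbered set (log2 ratio 3.71), and the kinase gene Pik3cd 253 and 58.0 CPM (2.13). The Src family kinase gene Fgr averaged 93.0 CPM in the higher-numbered set and 463 CPM in the lower-numbered set (-2.31), and Src itself 109 and 269.9 CPM (-1.31). Fcer1g, the partner chain through which Clec4d and Clec4e signal, lay at 1118 to 1275 CPM in the higher-numbered set and at 941 to 1035 CPM in the lower-numbered set. Tyrobp, which encodes the Dap12 chain used by Clec5a, lay at 1027 to 1080 CPM in the higher-numbered set and at 588 to 638 CPM in the lower-numbered set. Thus the chain used by Clec4d and Clec4e was not low where those receptors were low.

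Among 11 genes listed as dampening these signals, mostly phosphatases and ubiquitin ligases, 2 were over 2-fold higher in the higher-numbered set. Over 2-fold lower was 1, against 9.71% higher and 9.93% lower among all genes. The ligase gene Cblb averaged 96.8 CPM in the higher-numbered set and 44.0 CPM in the lower-numbered set (log2 ratio 1.14), and the lipid phosphatase gene Inpp5d 448 and 222 CPM (1.01). Tnfaip3, an NF-kB target that restrains NF-kB, averaged 32.4 CPM in the higher-numbered set and 94.8 CPM in the lower-numbered set (-1.55). Of 17 genes of the NF-kB and NFAT pathways and of the Egr and Irf factors, 2 were over 2-fold higher. Over 2-fold lower were 3, against the same shares of all genes. The factor genes Egr3 (8.71 CPM in the higher-numbered set and 1.75 CPM in the lower-numbered set, log2 ratio 2.31) and Nfatc2 (12.2 and 3.05 CPM) were the higher ones. The lower ones were Egr2 (40.8 and 205 CPM in the same order, -2.33), the inhibitor gene Nfkbia (110 and 355 CPM, -1.69) and Nfkb2 (-1.03). Of 10 genes of the oxidative burst and the inflammasome, 0 were over 2-fold higher and 2 over 2-fold lower, against 19.6% of all genes in either direction: the sensor gene Nlrp3 (49.9 and 123 CPM in the same order, log2 ratio -1.30) and Ncf4 (-1.05).

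All 14 tested cytokine and chemokine outputs were over 2-fold lower in the higher-numbered set, with a median log2 ratio of -2.65, where 9.93% of all genes were. The ranges of Tnf overlapped, as it was listed at 0 in hAMSC 7. The other two listed outputs did not pass the filter and lay the other way at very low levels, Il10 at 0.191 CPM in the higher-numbered set and 0.0473 CPM in the lower-numbered set, and Il12b at 0.149 and 0.0450 CPM. Il1a averaged 5.46 CPM in the higher-numbered set and 123 CPM in the lower-numbered set (-4.49), and Csf2 0.165 and 10.6 CPM (-6.01). This list was drawn up with earlier results on Il1b and Cxcl2 in these libraries known, so its shared direction is not independent evidence. Of 7 transcription factor genes known to act on these receptors, 1 was over 2-fold higher and 2 over 2-fold lower in the higher-numbered set. Among all genes the shares were 9.71% and 9.93%. Cebpb, which drives Clec4e in mouse macrophages, averaged 23.3 CPM in the higher-numbered set and 106 CPM in the lower-numbered set (-2.18). Mitf averaged 82.9 and 240.3 CPM (-1.54) and Irf8 197 and 82.0 CPM (1.27) in the same order. Spi1, which encodes PU.1, averaged 215 CPM in the higher-numbered set and 297 CPM in the lower-numbered set. The part of these factors in the receptor levels was not tested.

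**Figure D3:**
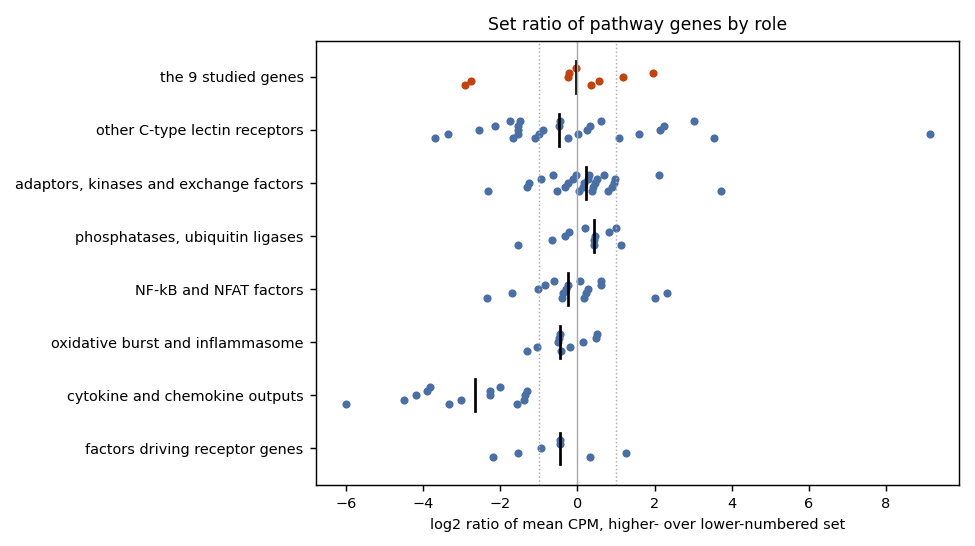
Log2 ratio of mean CPM, higher-numbered over lower-numbered set, for every tested gene of each list. Points are genes, black lines are list medians and dotted lines mark a 2-fold ratio; the outputs all lie left of -1, and the point far right is Cd207, with 3 counts in the lower-numbered set.

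Markers of other cells that carry these receptors also differed between the sets. The summed level of all 12 macrophage markers was 17364 to 19207 CPM in the higher-numbered set and 6549 to 6969 CPM in the lower-numbered set. Most of that gap was the lysozyme gene Lyz2, at 9024 and 1109 CPM on average in the same order. Of the 12, 5 were over 2-fold higher, against 9.71% of all genes, and 1 over 2-fold lower, Marco (log2 ratio -1.39), against 9.93%. Among the 5, Timd4 averaged only 0.768 CPM in the higher-numbered set and 0.122 CPM in the lower-numbered set. Cd68 (0.04), Cd163 (-0.19) and Clec4f (-0.24) differed little. All 8 dendritic cell markers summed to 569 to 631 CPM in the higher-numbered set and 476 to 529 CPM in the lower-numbered set, most of it Itgax, which averaged 554 and 463 CPM in the same order. The median of the 6 tested ones was -0.73. Clec9a (-1.73), Zbtb46 (-1.72) and Batf3 (-2.67) were over 2-fold lower and Flt3 (1.75) over 2-fold higher, against the same shares of all genes. The type 1 dendritic cell marker Xcr1 lay at 0 to 0.0573 CPM. The 9 neutrophil markers summed to 11.6 to 15.5 CPM in the higher-numbered set and 3.12 to 4.75 CPM in the lower-numbered set, with 2 counts of Mpo and Elane together over all libraries. Csf3r made up most of the sum (11.6 CPM in the higher-numbered set and 0.713 CPM in the lower-numbered set), and Camp lay the other way (0.647 and 2.56 CPM). The 5 monocyte markers found of 7 listed summed to 57.3 to 91.4 CPM in the higher-numbered set and 81.7 to 106 CPM in the lower-numbered set. Among them the receptor Ccr2 had 10 counts over all libraries, and Cx3cr1 lay at 27.5 to 58.8 CPM in the higher-numbered set and 0.0323 to 0.289 CPM in the lower-numbered set. The part of such cells in the set differences was not tested.

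For the treatments, the comparison asks whether soluble products of either human cell type moved these receptors. Over both sets, with the set in the model, none of the 9 genes passed in any of the 3 comparisons by edgeR's quasi-likelihood test, with p-values adjusted by Benjamini-Hochberg over all genes tested.

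With hAMSC, the nearest to the threshold was Clec10a, which was higher than with vehicle by 0.39 on the log2 scale (SE 0.09, edgeR adjusted p = 0.127). Its 2 hAMSC libraries lay above both vehicle libraries in each set, and the difference was 0.42 within the higher-numbered set and 0.35 within the lower-numbered set. DESeq2 called it (adjusted p = 0.00444), and so did edgeR without hAEC 3 (adjusted p = 0.0489), which is not one of the libraries compared. Over all 19 other settings the difference ran from 0.31 to 0.44 and its adjusted p from 0.00444 to 0.999985.

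Clec4d was the next, at 0.28 (SE 0.09, edgeR adjusted p = 0.326). Its hAMSC libraries also lay above both vehicle libraries in each set, by 0.08 within the higher-numbered set and 0.45 within the lower-numbered set. These 2 genes were the members with every hAMSC library above vehicle in both sets, against 3.94% of all genes, and 0 members had every hAMSC library below vehicle, against 4.49%. Clec4e was at 0.19 (SE 0.10, edgeR adjusted p = 0.574), at -0.04 in the higher-numbered set and 0.36 in the lower-numbered set. In the lower-numbered set both Clec4e libraries with hAMSC exceeded both with vehicle, and in the higher-numbered set the groups overlapped.

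Card9 was lower with hAMSC by a log2 difference of -0.12 (SE 0.06, edgeR adjusted p = 0.514), the third member with an unadjusted p under 0.05 besides Clec10a and Clec4d. That count, 3 of 9, stands beside 9.68% of all genes at an unadjusted p under 0.05. At the adjusted threshold 0 of 9 members passed by edgeR, which called 32 genes, or 0.236% of all genes. By DESeq2 1 member passed, where it called 155 genes in all, and by limma voom 0 members passed. Clec5a (0.09), Clec7a (0.09), Clec4a (0.04), Clec12a (-0.03) and Syk (0.00) had log2 differences of 0.1 or less in size. The median of the 9 genes was 0.09, against 0.00 for all genes.

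With hAEC, the log2 differences from vehicle ran from -0.09 for Card9 to 0.19 for Clec4d and Clec10a. Clec10a with hAEC was above vehicle by 0.32 within the higher-numbered set and by 0.05 within the lower-numbered set (over both sets 0.19, SE 0.09, edgeR adjusted p = 0.881). Clec4d showed 0.09 within the higher-numbered set and 0.28 within the lower-numbered set (over both 0.19, SE 0.09, edgeR adjusted p = 0.881). Clec7a (0.11), Clec5a (0.12), Clec4a (0.09), Clec12a (0.06), Clec4e (-0.01) and Syk (-0.02) completed the 9. By edgeR 0 of 9 members passed and 0 had an unadjusted p under 0.05, where 0% of all genes passed and 5.61% had an unadjusted p under 0.05. DESeq2 and limma voom also called 0 members. No member had every hAEC library above vehicle in both sets, against 4.39% of all genes, or below it, against 3.6%.

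**Figure D4:**
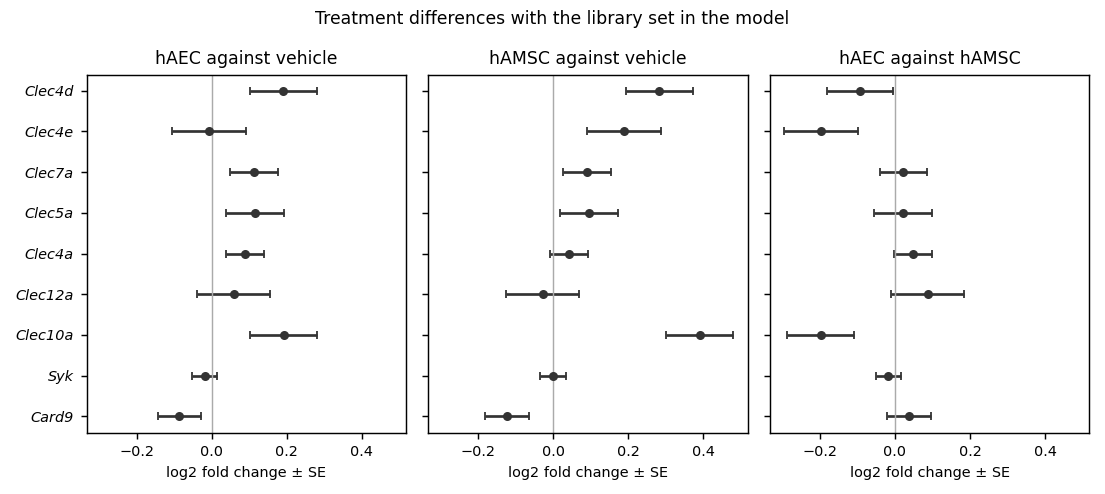
Log2 fold changes of the 9 genes in the 3 treatment comparisons, from the model that holds the library set; points are estimates from edgeR and bars are ± 1 SE. Clec10a with hAMSC against vehicle, at 0.39, lies farthest from 0.

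Between the human cell types, hAEC libraries had less Clec10a than hAMSC libraries, with a log2 difference of -0.20 (SE 0.09, edgeR adjusted p = 0.768), and less Clec4e, likewise -0.20 (SE 0.10, edgeR adjusted p = 0.817). The other 7 members lay between -0.09 for Clec4d and 0.09 for Clec12a. By edgeR 0 of 9 members passed, and 1, Clec10a, had an unadjusted p under 0.05, where 0.0222% of all genes passed and 6.37% had an unadjusted p under 0.05. DESeq2 and limma voom called 0 members. No member had every hAEC library above hAMSC in both sets, against 3.69% of all genes, or below it, against 3.83%. This comparison shares the hAMSC libraries with that of hAMSC against vehicle.

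The treatment differences were then compared between the sets in a model of the 6 combinations of group and set. For hAMSC against vehicle, the Clec4e difference in the higher-numbered set minus that in the lower-numbered set was -0.40 on the log2 scale (SE 0.16, edgeR adjusted p = 0.440), and for Clec4d it was -0.37 (SE 0.15, edgeR adjusted p = 0.432). For hAEC, the Clec12a difference was -0.14 in the higher-numbered set and 0.27 in the lower-numbered set, a change of -0.42 (SE 0.15, edgeR adjusted p = 0.901). By edgeR 0 of 9 members passed in either test. With hAMSC 2 members had an unadjusted p under 0.05, against 10% of all genes, and 0.199% of all genes passed the adjusted threshold. With hAEC 1 member did, against 5.4% of all genes, and 0% passed. The change was above 0 for 3 of the 9 members with hAEC, against 49.5% of all genes, and for 3 of the 9 with hAMSC, against 50.3%. DESeq2 and limma voom called 0 members in either test. Without hAMSC 8, Clec4d passed for hAMSC (log2 -0.53, edgeR adjusted p = 0.0307). With no filter on low counts, edgeR called 533 genes for the hAMSC effect and 309 for the hAEC effect. Those called by edgeR included Clec4d (adjusted p = 0.00669) and Clec4e (adjusted p = 0.0194) for hAMSC and Clec12a (adjusted p = 0.0374) for hAEC. Their log2 values were nearly the same as with the filter (-0.37, -0.40 and -0.42).

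**Figure D5:**
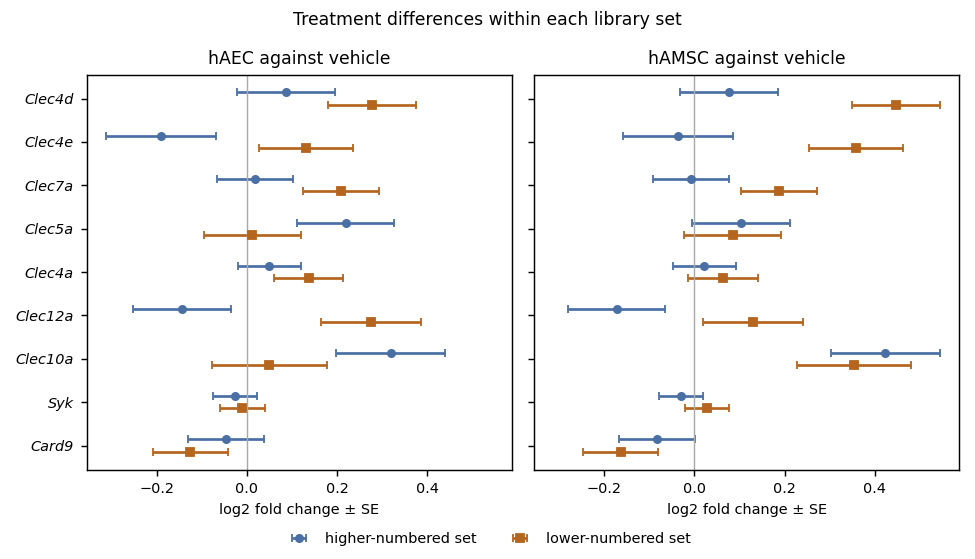
Log2 fold changes against vehicle within each library set, where 2 libraries stand against 2; circles are the higher-numbered set, squares the lower-numbered set and bars ± 1 SE. For hAMSC, Clec10a lies at 0.42 and 0.35 in the sets, while Clec4d lies at 0.08 in the higher-numbered set and 0.45 in the lower-numbered set.

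Of the 112 tested genes of the pathway lists, none passed the edgeR test over all genes in the 3 treatment comparisons. With hAMSC against vehicle the smallest p-values among other lectin receptors were those of the endothelial and myeloid lectin Cd93 (log2 0.27, edgeR adjusted p = 0.119), the dendritic cell receptor Ly75 (0.27, edgeR adjusted p = 0.187) and the mannose receptor Mrc1 (0.12, edgeR adjusted p = 0.278). The inflammasome sensor gene Nlrp3 was at 0.21 (edgeR adjusted p = 0.125), and the dampening phosphatase gene Ubash3b at 0.15 (edgeR adjusted p = 0.230). With hAEC against vehicle the nearest were Cd69 among the receptors (0.32, edgeR adjusted p = 0.860) and the chemokine gene Cxcl2 among the outputs (-0.29, edgeR adjusted p = 0.860). Between hAEC and hAMSC the nearest was Ly75 (-0.40, edgeR adjusted p = 0.0842). Of the 14 outputs, 1 was above 0 with hAEC (median log2 -0.16) and 4 with hAMSC (median -0.07), each against vehicle, beside 48.5% and 48.9% of all genes above 0.

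Of the endothelial markers none passed with hAMSC, and all 8 had log2 differences from vehicle above 0 (median 0.20), against 48.9% of all genes. With hAEC against vehicle 0 of these 8 were above 0 (median -0.11), against 48.5% of all genes, and 0 passed. For hAEC against hAMSC 0 of these 8 were above 0 (median -0.34) and 0 passed. In that comparison 5 had an unadjusted p under 0.05 by edgeR, against 6.37% of all genes. The endothelial markers summed to 468 to 534 CPM with hAMSC and 395 to 406 CPM with vehicle in the higher-numbered set. In the lower-numbered set they summed to 602 to 733 CPM with hAMSC and 685 to 708 CPM with vehicle, where the groups overlapped. Their part in the Clec10a and Cd93 values was not tested. Macrophage markers with hAMSC summed to 17364 to 17655 CPM in the higher-numbered set, against 18173 to 19207 CPM with vehicle, and to 6570 to 6909 CPM in the lower-numbered set, against 6549 to 6969 CPM with vehicle. Of the 12 macrophage markers 1 passed, the scavenger receptor gene Cd163 (log2 0.61, edgeR adjusted p = 0.0277), against 0.236% of all genes. Of the 12, 7 were above 0, while Lyz2 was below 0 (log2 -0.16, edgeR adjusted p = 0.143). The monocyte and resident macrophage marker Cx3cr1 was at 33.4 and 27.5 CPM with hAMSC and 50.8 and 52.1 CPM with vehicle in the higher-numbered set (over both sets log2 -0.70, edgeR adjusted p = 0.180). The part of these markers in the Clec10a value was not tested either.

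After the mean of each set was taken off, the genes most like Clec4e and Syk over the 12 libraries were sought among 9219 genes with a mean of at least 5 CPM. They were Tbc1d2b, Abca1 and Abca3 for Clec4e, and Ptk2b, Nadk and Ano6 for Syk. Likeness was ranked by Pearson's coefficient, which was 0.88 or more for each, and libraries of like depth or makeup can set it, so this is a description only.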

How the data were processed

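Polyadenylated RNA of 12 libraries was analysed, 4 per group. Per the file headers, the authors deposited an expected count for each gene and library. The submitters' processing notes list RSEM, STAR, Trim Galore, FastQC and limma, and name Rnor_6.0 and rn6 as builds, without versions or roles of the tools. Total counts were 27382724 to 34922211 per library. These estimated counts were rounded to whole numbers for edgeR 4.0.16, run under R 4.3.3: filterByExpr kept 13539 genes, TMM factors were 0.973 to 1.03, and 1 robust quasi-likelihood fit over all 12 libraries had the group and the library set as terms. P-values are two-sided and adjusted by Benjamini-Hochberg over all genes, with a threshold of 0.05. SE is the log2 fold change divided by the root of the F statistic. CPM use TMM-scaled library sizes. The code was tested on simulated data. Library pairs of the same group and set differed by more than sampling noise, so none was counted as a duplicate. The coefficient of biological variation was 9.91% with the set in the model and 38.9% without it. The members, the library sets, the lists and the tests were chosen with earlier results of these data known. The named genes were all members, in each list up to 3 genes of smallest p per comparison and up to 2 with the largest set ratio each way at a mean of at least 5 CPM in a set, and the 3 genes most like Clec4e, Clec7a and Syk; those for Clec7a are not reported here. Promoter windows and gene order come from RefSeq, build GRCr8, matched by symbol. DESeq2 1.42.0 and limma 3.58.1 (voom), other scalings, no filter, the 2 groups alone, no set term and leaving out each library were the alternatives.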

Additional observations from a re-analysis of the deposited data

Results flagged for a closer look

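Clec14a, an endothelial C-type lectin, differed in its hAMSC effect between the library sets: the effect in the higher-numbered set minus that in the lower-numbered set was 1.65 on the log2 scale (edgeR adjusted p = 0.0173). It was at 17.6 and 16.8 CPM with hAMSC and 5.75 and 5.85 CPM with vehicle in the higher-numbered set, and at 23.5 and 34.5 CPM with hAMSC and 27.5 and 34.0 CPM with vehicle in the lower-numbered set. The chemokine receptor gene Ccr7, a marker of migrating dendritic cells, did so too, by 1.14 (edgeR adjusted p = 0.0173), with 35.4 and 33.3 CPM with hAMSC and 20.5 and 17.9 CPM with vehicle in the higher-numbered set, against 15.3 and 20.6 CPM with hAMSC and 22.2 and 21.9 CPM with vehicle in the lower-numbered set. Over 17 other settings Clec14a passed in 12, with log2 values of 1.40 to 1.95, and Ccr7 in 12, with 0.938 to 1.36. Clec14a did not pass by limma voom (adjusted p = 0.132) or by edgeR without hAMSC 15 (adjusted p = 0.126), vehicle 18 (0.0710), vehicle 19 (0.0980) or vehicle 20 (0.114). Ccr7 did not pass by edgeR without hAMSC 15 (adjusted p = 0.0988), vehicle 17 (0.0653), vehicle 18 (0.0937), vehicle 19 (0.0538) or vehicle 20 (0.0977). All 8 endothelial markers also had this difference above 0, against 50.3% of all genes, with a median of 0.66. Of these markers 6 had an unadjusted p under 0.05 by edgeR, against 10% of all genes, and 0 passed. Their part in the Clec14a value was not tested. A check for single libraries far from their group of 4 tells nothing here, since each group holds 2 libraries of each set.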

How the results depend on the processing

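Over all genes, the count of calls moved by over 1.5 times in several settings. For hAMSC against vehicle (32 genes) it was 0 without the set term, 52 with no filter, 155 by DESeq2 and 9 with the 2 groups alone. For hAEC against hAMSC (3 genes) it was 0 without the set term, 26 with no filter, 80 by DESeq2 and 10 by limma voom. For hAEC against vehicle (0 genes, with 759 at an unadjusted p under 0.05 by edgeR) it was 2 by DESeq2, 1 by limma voom and 10 with the 2 groups alone. The difference of the hAEC effect between sets (0 genes, with 731 at an unadjusted p under 0.05 by edgeR) gave 309 with no filter and 23 by DESeq2, and that of the hAMSC effect (27 genes) 533, 113 and, by limma voom, 10. The cause was not tested. Among the 9 members, the calls were 1 by DESeq2 for hAMSC against vehicle, and with no filter 1 for the hAEC and 2 for the hAMSC effect between sets. Leaving out 1 library at a time gave 8 to 153 genes for hAMSC against vehicle (members 0 to 1), 0 to 50 for hAEC against hAMSC (members 0), 0 for hAEC against vehicle, 0 to 5 for the hAEC effect between sets and 0 (without vehicle 19) to 158 (without hAMSC 16) for the hAMSC effect (members 0 to 1). Differences near 0 changed sign. Clec4e with hAEC against vehicle was 0.0875 without the set term and 0.0557 by limma voom, and Syk with hAMSC was 0.000427 with no filter. On leaving out a library, hAEC against vehicle ran from -0.0664 to 0.0593 for Clec4e and from -0.00664 to 0.144 for Clec12a. Likewise hAMSC against vehicle ran from -0.0950 to 0.0580 for Clec12a, from -0.00354 to 0.0839 for Clec4a and from -0.0300 to 0.0185 for Syk. And hAEC against hAMSC ran from -0.128 to 0.0242 for Clec4d, from -0.0312 to 0.105 for Clec5a, from -0.0283 to 0.0740 for Clec7a and from -0.0365 to 0.0118 for Syk. The 4 members over 2-fold between sets numbered 4 in every setting run. No paired analysis was possible because the groups share no sample number. With 2 libraries per group and set, the effects within a set are the least precise values.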
